A study of Mus musculus with 16 samples.

Results

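Hepatocytes make most of the proteins of blood plasma, and RNA for 9 of these proteins was followed here in preparations of hepatic stellate cells. These pericytes of the liver sinusoids store vitamin A and become matrix-producing myofibroblasts after injury. The genes were Alb, Afp, Ttr, Hpx, Fgb, Ahsg, Apoa1, Apoa2 and Trf. A gene was taken where the array annotation assigned a probe set to its symbol alone, and where several probe sets did, the one with the highest mean over all 16 arrays was kept. This gave 8 of the 9 genes, out of 18193 genes measured. For Trf, which encodes the iron carrier transferrin, the annotation listed 1 probe set, which it also assigned to Srprb, so no value is given for Trf itself.

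The 16 arrays held stellate cells of male Balb/c mice aged 8 to 10 weeks, isolated by density centrifugation. Macrophages were then removed magnetically through the surface antigen that Adgre1 encodes. Quiescent cells came from normal mice and were lysed 24 h after plating (5 arrays). Cells in culture were kept for 5 days in medium with 10% fetal bovine serum (3 arrays), and cells in coculture had the same 5 days and serum with hepatic macrophages (Kupffer cells) in transwell inserts, without contact (2 arrays; the series' design text gives 3, and 1 was not analysed here). Bile duct ligation (BDL) cells came from mice whose common bile duct had been tied for 15 days, and CCl4 cells from mice given 4 intraperitoneal injections of carbon tetrachloride at 0.5 µl per g body weight. Both were plated for 24 h (3 arrays each). The design therefore compares stellate cells activated in a dish or in an injured liver with quiescent ones. The labels do not say that the arrays of a group came from separate animals or cultures, so each p-value here reflects array-to-array spread alone, and that spread may be technical.

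Albumin, alpha-fetoprotein and transthyretin carry fatty acids, hormones and other ligands in plasma, hemopexin binds free haem, and fibrinogen forms the clot. Their genes are transcribed at high rates in hepatocytes under liver-enriched transcription factors such as HNF1 and HNF4. Afp is the fetal member of the albumin family and is silenced in the liver after birth, with renewed expression known during liver regeneration.

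The promoters of 4 of the genes are shown because those of Alb, Afp and Fgb hold the same short liver motif upstream of the start and that of Hpx does not. RefSeq promoter sequences (GRCm38.p6) were at hand for 7 of the 9 genes, and the 150 bases before the start are given 5′ to 3′ in the direction of the gene, with capitals marking GTTAAT, the core of the HNF1 recognition sequence, on either strand (ATTAAC where it lies on the other strand).
Alb, chr5:90460720-90460869, plus strand: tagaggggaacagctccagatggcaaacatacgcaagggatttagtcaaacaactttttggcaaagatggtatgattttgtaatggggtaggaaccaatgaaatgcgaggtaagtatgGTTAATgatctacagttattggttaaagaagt
Afp, chr5:90490564-90490713, plus strand: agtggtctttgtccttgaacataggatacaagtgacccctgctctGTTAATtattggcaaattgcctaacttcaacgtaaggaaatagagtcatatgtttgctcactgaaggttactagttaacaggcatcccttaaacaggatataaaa
Fgb, chr3:83049864-83050013, minus strand: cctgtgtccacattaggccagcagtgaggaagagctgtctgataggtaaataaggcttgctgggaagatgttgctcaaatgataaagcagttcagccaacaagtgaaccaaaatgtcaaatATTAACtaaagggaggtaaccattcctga
Hpx, chr7:105600117-105600266, minus strand: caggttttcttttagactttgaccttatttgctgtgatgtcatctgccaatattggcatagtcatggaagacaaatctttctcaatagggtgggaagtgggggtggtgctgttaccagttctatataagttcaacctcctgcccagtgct
GTTAAT, searched on both strands of the 250 bases before the start, was in 3 of the 7 promoters and in 6.47% of 32536 RefSeq promoters of that length. Its first base lay at -32 in Alb, -105 in Afp and -29 in Fgb, counted from the gene start annotated by RefSeq. TATAAA, searched the same way, was in 1 of the 7, at -7 in Afp, and in 12.3% of all promoters. A match describes letters, not binding. Alb (chromosome 5, 90460870 to 90476602) and Afp (chromosome 5, 90490714 to 90508907) are neighbours, with 14111 bases between the end of Alb and the start of Afp, while Hpx lies on chromosome 7 (105591611 to 105600116) and Fgb on chromosome 3 (83042246 to 83049863).

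Values are log2 expression values as deposited, on which unexpressed probe sets lie near 2 (the median of all probe sets was 2.00 to 2.06 on each array). Between 6803 and 7037 genes per array reached log2 5, the level that was required on at least 2 arrays for a gene to be tested. Arrays of 1 group correlated at 0.929 to 0.983 over the 7823 tested genes. One array matters for every result that follows. CCl4 replicate 3 gave the highest of the 16 values for 8 of the 8 genes, whereas it held the highest value for 4.3% of all 18193 genes. Its correlations with the other CCl4 arrays were 0.972 and 0.983, beside 0.976 between those. The CCl4 differences of the 8 genes are therefore given with and without it, as are most values of the gene lists.

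Only Alb, Ttr, Hpx and Afp reached the testing level, and they did so only through arrays of injured livers, so their count among tested genes was fixed in part by that filter. No member reached log2 5 on any of the 10 arrays of quiescent, cultured or cocultured cells. On the BDL arrays 3, 1 and 2 of the 8 genes did, and on the CCl4 arrays 3, 4 and 8 did. In these bulk RNA samples, fewer cells of a type and less RNA per cell cannot be told apart.

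**Figure D1:**
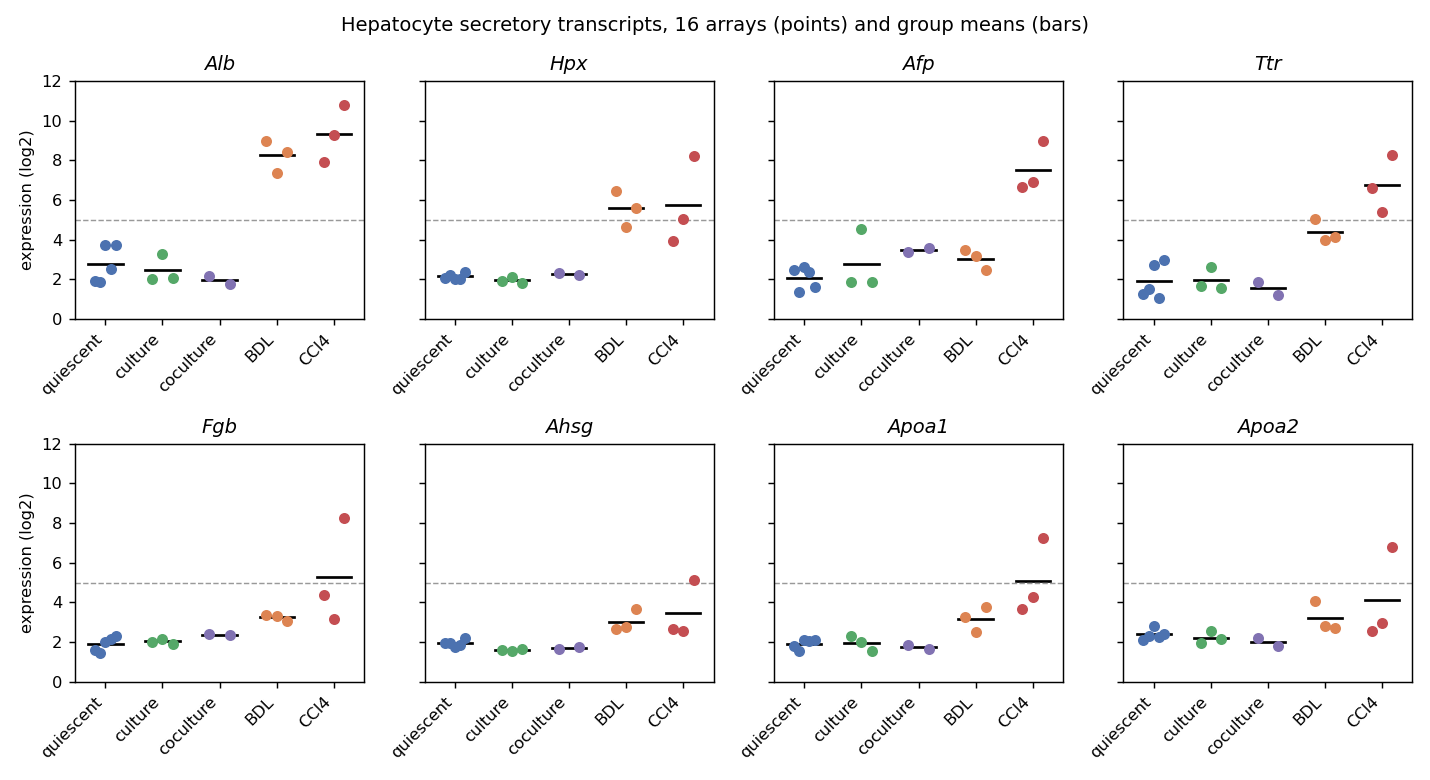
Log2 expression of the 8 measured genes (vertical axes) on each of the 16 arrays, grouped as quiescent, culture, coculture, BDL and CCl4 (horizontal axes); each dot is 1 array, each bar a group mean, and the dashed line is log2 5. Alb stands above the line on all 6 arrays of injured livers, at 7.34 to 10.79, and Fgb, Ahsg, Apoa1 and Apoa2 cross it on 1 CCl4 array alone.

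Albumin RNA was near background in normal and cultured cells and high after both injuries. Alb read 1.92, 1.84, 3.74, 2.50 and 3.75 in quiescent replicates 1 to 5, 2.03, 3.30 and 2.04 in culture, and 2.17 and 1.75 in coculture. It read 9.0, 7.34 and 8.40 after BDL and 7.94, 9.26 and 10.79 after CCl4. Every array of an injured liver was above every other array, with a gap of more than 3 log2 units between 3.75 and 7.34. The group means were 2.75 ± 0.94 (SD, n = 5) in quiescent cells, 8.25 ± 0.84 (SD, n = 3) after BDL and 9.33 ± 1.42 (SD, n = 3) after CCl4. Against quiescent cells, Alb was higher by 5.50 ± 0.61 (log2 difference ± SE) after BDL, 45.2-fold, and by 6.58 ± 0.61 after CCl4, 95.6-fold. The limma adjusted p-values were 2.02e-05 and 3.52e-06. Without CCl4 replicate 3 the CCl4 difference was 5.85 ± 0.62, with a limma adjusted p of 3.75e-05. Because the quiescent level lies near background, these folds depend on the background estimate of the deposited values.

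Hemopexin, the plasma scavenger of free haem, was at background outside the injury groups and rose after both injuries. Hpx lay between 1.83 and 2.37 on all 10 arrays of quiescent, cultured and cocultured cells. It read 6.47, 4.65 and 5.61 after BDL and 3.92, 5.06 and 8.23 after CCl4. No injury array overlapped the others, but the CCl4 arrays spanned more than 4 log2 units. The difference from quiescent cells was 3.43 ± 0.67 after BDL, 10.8-fold (limma adjusted p = 0.00231), and 3.59 ± 0.67 after CCl4, 12.1-fold (limma adjusted p = 0.0015). Without CCl4 replicate 3, the CCl4 difference fell to 2.34 ± 0.43, a move of more than 1.5 times, and stayed called (limma adjusted p = 0.00259).

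Transthyretin, the carrier of thyroxine and of retinol-binding protein, followed with a lower level after BDL than after CCl4. Ttr lay between 1.04 and 2.99 in quiescent cells, read 1.65, 2.61 and 1.57 in culture, and 1.88 and 1.20 in coculture. It read 5.06, 4.00 and 4.11 after BDL and 6.59, 5.39 and 8.29 after CCl4. The BDL arrays lay above every quiescent array, and the CCl4 arrays above every BDL array. The CCl4 arrays also lay above the BDL arrays for Afp, as they did for 8.13% of all genes. The difference from quiescent cells was 2.49 ± 0.60 after BDL, 5.60-fold (limma adjusted p = 0.0093), and 4.85 ± 0.60 after CCl4, 28.9-fold (limma adjusted p = 5.15e-05). The BDL call was lost without BDL replicate 1 (2.15, adjusted p = 0.0648) and when the Ttr probe sets were averaged (1.38, adjusted p = 0.0967). Without CCl4 replicate 3 the CCl4 difference was 4.08 ± 0.58 (limma adjusted p = 0.000444).

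Alpha-fetoprotein stood apart from albumin: it rose after CCl4 and was not called after BDL. Afp read 2.48, 1.37, 2.64, 2.36 and 1.59 in quiescent cells, 1.88, 4.52 and 1.89 in culture, and 3.39 and 3.59 in coculture. It read 3.46, 3.17 and 2.45 after BDL and 6.67, 6.89 and 8.98 after CCl4. The 3 CCl4 arrays lay above all others, while the BDL arrays overlapped the quiescent and culture arrays. The CCl4 difference from quiescent cells was 5.43 ± 0.61, 43.0-fold (limma adjusted p = 2.49e-05), and 4.69 ± 0.62 without CCl4 replicate 3 (limma adjusted p = 0.000259). The BDL difference was 0.94 ± 0.61 (limma adjusted p = 0.326).

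The contrast between the injuries tested this directly. Afp was lower after BDL than after CCl4 by 4.49 ± 0.69 log2 units, a 22.4-fold difference (limma adjusted p = 0.00982). It was 1 of 13 genes called between the injuries, and 0.141% of the 7823 tested genes were called lower after BDL. The call did not hold without BDL replicate 3 (-4.20, adjusted p = 0.0694) or without CCl4 replicate 3 (-3.75, adjusted p = 0.0687). For Alb the same contrast gave -1.08 ± 0.69 (adjusted p = 0.506), for Ttr -2.37 ± 0.67 (adjusted p = 0.166) and for Hpx -0.16 ± 0.75 (adjusted p = 0.955). With CCl4 replicate 3 left out these became -0.35 for Alb (adjusted p = 0.853), -1.60 for Ttr (adjusted p = 0.285) and 1.09 for Hpx (adjusted p = 0.321), so the order of the injuries for Hpx turned with that array. A p above the threshold does not show that these levels were alike.

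**Figure D2:**
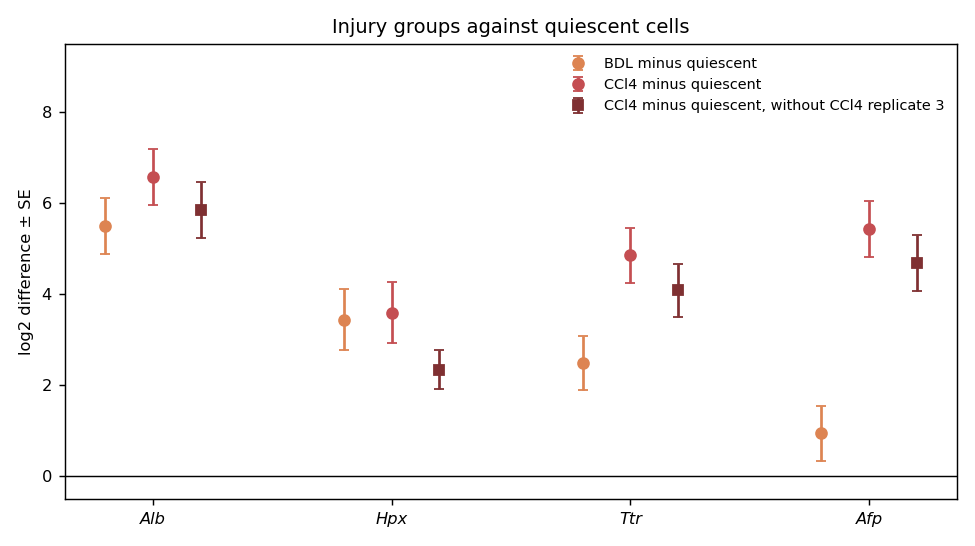
Log2 difference from quiescent cells (axis in log2 units) for Alb, Hpx, Ttr and Afp after BDL, after CCl4, and after CCl4 without replicate 3; points are fitted differences and bars are 1 SE. Afp after BDL is at 0.94 beside 5.50 for Alb, and all CCl4 points remain above 2 without replicate 3.

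Probe sets of 1 gene did not all show the same pattern for Afp. Of its 5 probe sets, 3 reached log2 5 on a CCl4 array, among them the one used. Another of the 3 read 5.22, 5.00 and 7.03 on the CCl4 arrays and the last 2.72, 3.46 and 6.71. The remaining pair stayed at 2.01 to 2.08 and 1.38 to 1.63 on those arrays, beside quiescent means of 1.62 and 1.65. When its probe sets were averaged Afp no longer reached the testing level. All 4 probe sets of Ttr and all 4 of Apoa1 had their highest value on CCl4 replicate 3. The suffix x_at, carried by the Ttr and Apoa1 probe sets used, marks probes that may also match other transcripts.

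**Figure D3:**
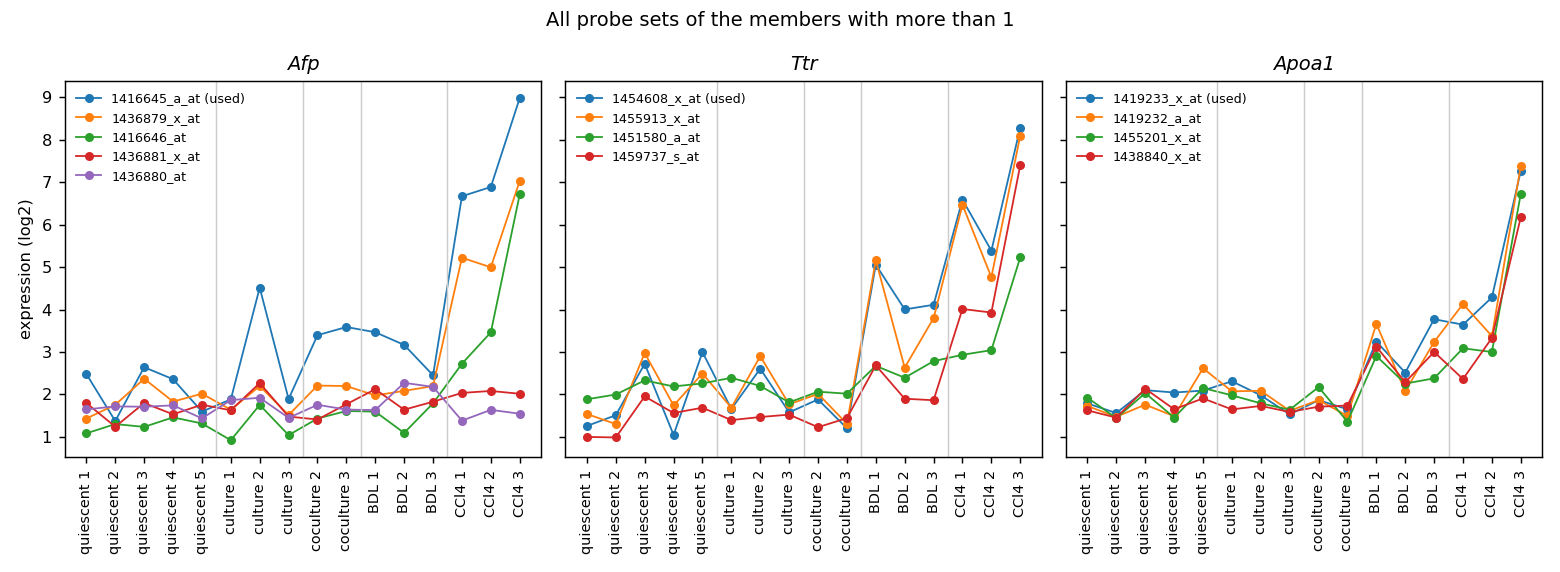
Log2 expression of every probe set of Afp, Ttr and Apoa1 (vertical axes) across the 16 arrays in group order (horizontal axes); each line is 1 probe set. For Afp, 3 of 5 lines climb on the CCl4 arrays and 2 stay near log2 2.

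The remaining plasma proteins stayed under log2 5 except on CCl4 replicate 3. Fgb, the beta chain of fibrinogen, read 1.47 to 2.30 in quiescent cells, 3.37, 3.32 and 3.04 after BDL, and 4.38, 3.16 and 8.27 after CCl4. Apoa1, the main apolipoprotein of high-density lipoprotein, read 1.56 to 2.10 in quiescent cells, 3.24, 2.51 and 3.77 after BDL, and 3.64, 4.28 and 7.27 after CCl4. For both genes every injury array lay above every quiescent array, at levels not far above background. Ahsg, which encodes the mineral-binding protein fetuin-A, read 1.77 to 2.22 in quiescent cells, 2.63, 2.76 and 3.69 after BDL, and 2.65, 2.56 and 5.11 after CCl4. Apoa2, another high-density lipoprotein apolipoprotein, read 2.12 to 2.83 in quiescent cells, 4.06, 2.81 and 2.71 after BDL, and 2.58, 2.96 and 6.79 after CCl4. Ahsg did not overlap and Apoa2 did.

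These 4 genes were outside the main test. In a fit without the filter on low values, the CCl4 difference was 3.37 ± 0.70 for Fgb (limma adjusted p = 0.00468), 3.15 ± 0.55 for Apoa1 (adjusted p = 0.00115), 1.49 ± 0.41 for Ahsg (adjusted p = 0.0289) and 1.72 ± 0.64 for Apoa2 (adjusted p = 0.111). Leaving out CCl4 replicate 3 as well, an alternative chosen after that array was seen to stand apart, gave 1.87 for Fgb (adjusted p = 0.000691), 2.05 for Apoa1 (adjusted p = 0.000509), 0.65 for Ahsg (adjusted p = 0.1) and 0.38 for Apoa2 (adjusted p = 0.596). The BDL differences of 1.34 for Fgb, 1.26 for Apoa1 and 1.07 for Ahsg were not called without the filter (adjusted p = 0.305, 0.198 and 0.14), and were called when CCl4 replicate 3 was also left out (adjusted p = 0.0026, 0.00596 and 0.00239). Apoa2 after BDL was at 0.81 and was called in neither fit (adjusted p = 0.544 and 0.0925).

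Across the 8 genes, 3 of the 4 tested were called higher after BDL, where 8.03% of tested genes were, and 4 of 4 after CCl4, where 9.51% were. Because these 4 genes entered the test only through arrays on which they were high, their share cannot be read against that of all tested genes. Counting every gene whether tested or not, all injury arrays lay above all quiescent arrays for 6 of 8 genes after BDL (8.07% of all genes) and for 7 of 8 after CCl4 (8.6% of all genes). Without CCl4 replicate 3 the latter remained 7 of 8, beside 12% of all genes. The median difference from quiescent cells was 1.30 after BDL and 3.48 after CCl4, or 2.20 without replicate 3, whereas the medians over all genes were 0.0088, -0.0087 and 4e-04.

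Alb, Afp, Ttr and Hpx did not pass the test in cells activated in the dish. In culture 0 of the 4 tested genes were called against quiescent cells, where 42.1% of tested genes were called in either direction, and in coculture 0 of 4, where 38.7% were. With these genes near background in quiescent and cultured cells alike, their count cannot be read against those shares. The culture differences by limma were -0.29 ± 0.61 for Alb (adjusted p = 0.726), 0.67 ± 0.61 for Afp (adjusted p = 0.397), 0.04 ± 0.60 for Ttr (adjusted p = 0.964) and -0.19 ± 0.67 for Hpx (adjusted p = 0.842). At an unadjusted p under 0.05 the count was also 0 in culture and 0 in coculture by limma. Afp at 4.52 in culture replicate 2 was the one value of these genes above every quiescent array in culture. With arrays weighted by their fit to the model, Afp alone was called in culture (1.96, adjusted p = 0.0118), beside 4283 of all 7823 tested genes. Culture replicate 2, the array with Afp at 4.52, had a weight of 5.79, against 0.93 and 0.44 for culture replicates 1 and 3. Without culture replicate 2, in a fit without weights, the Afp difference in culture was -0.20. In coculture the differences were -0.79 for Alb (adjusted p = 0.396), -0.36 for Ttr (adjusted p = 0.704) and 0.12 for Hpx (adjusted p = 0.918). There Afp lay above every quiescent array, with a difference of 1.40 ± 0.70 (limma adjusted p = 0.127), and so did Fgb at 2.39 and 2.35, both near background; 17% of all genes lay above in this way. Ahsg lay below every quiescent array in culture, where 11.6% of all genes did, and in coculture, where 15.3% did. Between coculture and culture 0 of 4 were called by limma, and 0 at an unadjusted p under 0.05, beside 15.4% of tested genes called. Hpx, Fgb and Ahsg lay higher in both coculture arrays than in every culture array, all near background, as did 17.6% of all genes. Taking all 5-day cultures against all 24 h preparations, Alb, Ttr and Hpx were lower by 4.57, 2.61 and 2.38 log2 units (limma adjusted p = 2.43e-06, 0.000234 and 0.00125), with 27.3% of tested genes called lower, and Afp was lower by 1.08 without a call (adjusted p = 0.0614). Ahsg lay lower in all 5-day arrays than in all others, as did 3.49% of all genes. The quiescent arrays, which belong to the 24 h preparations, overlapped the cultures for all 3 genes, so this contrast was carried by the injury groups.

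Other hepatocyte plasma protein genes had smaller median differences. Of 41 measured genes for other plasma proteins 2 were tested, Cp (ceruloplasmin) and Itih3, and neither was called after BDL or CCl4. The median difference of the 41 was 0.17 after BDL and 0.39 after CCl4, and all injury arrays lay above all quiescent arrays for 9 (22%) and 13 (31.7%) of them. Without CCl4 replicate 3 the CCl4 median was 0.26 and the count 14 (34.1%). Among the untested genes of the list, 3 with high values on CCl4 replicate 3 are named after their values were seen. Rbp4, the plasma retinol carrier, had a mean of 1.42 in quiescent cells and 2.83 after BDL, and read 2.96, 3.60 and 6.91 after CCl4. Ambp, the precursor of alpha-1-microglobulin, had means of 1.66 and 3.70 and read 3.49, 3.51 and 6.28. Fga, the alpha chain of fibrinogen, had means of 1.39 and 2.16 and read 2.99, 1.82 and 7.11, with CCl4 replicate 2 inside the quiescent range. On CCl4 replicate 3, 7 of the 41 genes reached log2 5, against 1 or 2 on every other array.

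Genes for hepatocyte enzymes and transporters had medians near 0. Of 30 enzymes and transporters 2 were tested, Glul (glutamine synthetase) and Fah, with 0 called after either injury, and the median difference was -0.01 after BDL and 0.10 after CCl4, or 0.02 without replicate 3. All injury arrays lay above the quiescent ones for 1 (3.33%) and 4 (13.3%) of them. Among the others, named after their values were seen, Cps1, the abundant urea cycle enzyme of hepatocytes, had means of 0.83 in quiescent cells, 0.86 after BDL and 1.06 after CCl4, and Cyp2e1, which metabolises CCl4, had 1.40, 1.38 and 1.92. Fabp1, the liver fatty acid binding protein, read 2.94, 2.93 and 6.52 after CCl4. Cyp1a2 read 1.76, 1.91 and 4.29 there, and Adh1 2.02, 2.02 and 3.98, beside quiescent means of 1.38 and 1.46. On CCl4 replicate 3 Cps1 read 1.34 and Cyp2e1 2.69. The median difference of the 30 genes on that array was 0.22, and 3 of them reached log2 5, against 1 or 2 on every other array. Of 15 liver-enriched transcription factors 3 were tested, with 0 called after BDL, and Nr1h4 (-1.78, adjusted p = 0.0219) and Zbtb20 (-1.14, adjusted p = 0.00233), a repressor of Afp, lower after CCl4 by limma. Both stayed called without CCl4 replicate 3 (-1.96, adjusted p = 0.0379, and -1.21, adjusted p = 0.00771). Zbtb20 was also called lower in coculture (-1.19, limma adjusted p = 0.00228) and was not called in culture (0.21, adjusted p = 0.488). Hnf4a stayed at 1.91 to 1.99 in the means of the quiescent, BDL and CCl4 groups. Of 6 other fetal liver genes 0 reached the testing level.

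Of 71 hepatocyte genes on the plasma protein and enzyme lists, 33 (46.5%) had their highest value on CCl4 replicate 3, beside 4.3% of all genes.

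Genes that handle iron, haem and lipoproteins were also followed. Of 13 measured iron and haem transport genes 8 were tested, with 0 higher and 2 lower after BDL, where 8.83% of tested genes were called lower, and 0 higher and 3 lower after CCl4, where 12.5% were (2 lower without CCl4 replicate 3). Of all 13, tested or not, 2 lay above every quiescent array after BDL and 3 after CCl4, with medians of 0.01 and 0.03. The 2 after BDL were Hp and Hamp, which were also among the 3 after CCl4. Hp, Hamp and Cp are on the list of other plasma proteins too. By limma, Hfe, the iron-sensing membrane protein, fell by 1.40 after BDL (adjusted p = 0.015) and by 1.13 after CCl4 (adjusted p = 0.0367), a call lost without CCl4 replicate 3 (-1.07, adjusted p = 0.104). Lrp1, the hemopexin receptor, fell by 1.34 after CCl4 (adjusted p = 0.00224) and Fth1, ferritin heavy chain, fell by 0.30 and 0.37 (adjusted p = 0.00739 and 0.00134). Lrp1 and Fth1 were also called lower in culture (-2.15 and -0.47) and in coculture (-2.33 and -0.74). Hfe was called higher there (2.12 in culture and 2.01 in coculture). Of 15 lipoprotein genes 5 were tested, with 1 lower after each injury, the phospholipid transfer protein gene Pltp (-0.73 after BDL, adjusted p = 0.029, and -0.81 after CCl4, adjusted p = 0.0143, or -0.84 and adjusted p = 0.038 without CCl4 replicate 3). Of all 15, however, 7 (46.7%) lay above every quiescent array after CCl4, also without replicate 3, and 1 after BDL. Apob, Apoc3, Apoa5 and Lcat are shared by this list and that of other plasma proteins. The median difference of the 15 was 0.16 after BDL and 0.37 after CCl4, or 0.15 without replicate 3. In culture 4 of the 5 tested were called higher by limma, namely Apoe (1.04, adjusted p = 0.0312), Pltp (1.59, adjusted p = 4.92e-05), Scarb1 (0.39, adjusted p = 0.0442) and Lpl (1.84, adjusted p = 0.000163).

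Mesothelial and macrophage markers also rose after injury. The median difference of the mesothelial list was highest on CCl4 replicate 3 (2.11), and that of the macrophage list on BDL replicate 2 (1.25). Of 7 mesothelial markers, genes of the cell layer that covers the liver, 5 after BDL and 6 after CCl4 had all arrays above the quiescent ones, and their median difference was 1.02 and 1.13, or 0.64 after CCl4 without replicate 3. Lrrn4, the 1 tested, was higher by 2.70 after BDL (limma adjusted p = 0.0122) and by 4.72 after CCl4 (limma adjusted p = 0.000192), and read 3.93, 6.19 and 8.26 on the CCl4 arrays. It did not reach the testing level once CCl4 replicate 3 was left out. The summed level of the list, as log2 of summed linear values, was 4.28 to 4.55 in quiescent cells, 5.23 to 6.27 after BDL and 6.07 to 8.86 after CCl4, with the highest value again on CCl4 replicate 3. Wt1 and Upk1b, defining markers of that layer that were not tested, reached 5.96 and 5.97 there, while Msln reached 3.83.

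Of 18 macrophage markers 11 after BDL and 8 after CCl4 had all arrays above the quiescent ones, and the summed level was 7.11 to 8.15 in quiescent cells, 7.83 to 9.71 after BDL and 7.76 to 8.93 after CCl4. Of 3 tested, Ctss and Lyz2 were called higher after both injuries, also without CCl4 replicate 3, when 9 of the 18 lay above after CCl4. Cd68, also tested, was not called after BDL (-0.68, limma adjusted p = 0.391) or CCl4 (0.04, adjusted p = 0.967). In the dish, Lyz2 was called higher by limma in culture (2.93, adjusted p = 0.00173) and coculture (3.47, adjusted p = 0.00168). Ctss was called in neither, and Cd68 was called lower in culture (-3.28, adjusted p = 0.000136). Adgre1, whose product was the target of the depletion, and Clec4f, a Kupffer cell marker, stayed near background, with highest values of 2.56 and 2.87. Cholangiocyte markers moved less, with median differences of 0.14 and 0.21 for 9 genes, and Epcam and Krt7 did not reach log2 3 on any array. On BDL replicate 2, however, Aqp1, named after its values were seen, read 5.35 and Krt19 read 3.01, beside quiescent means of 1.91 and 1.58. The summed level of the list was 5.07, 6.22 and 5.12 after BDL, beside 4.87 to 5.15 in quiescent cells. Of 13 sinusoidal endothelial markers 2 were tested, Eng and Egfl7, with 1 lower after BDL and 2 lower after CCl4, and Stab2 and Lyve1 did not reach log2 3 on any array. Of all 13, however, 5 (38.5%) lay above every quiescent array after BDL and 3 after CCl4, with medians of 0.35 and 0.08. Among these untested genes, named after their values were seen, Emcn read 4.88, Cdh5 3.91 and Pecam1 3.03 on BDL replicate 2. The part of these cells in the plasma protein results was not tested.

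The stellate label was checked against 18 markers, of which 16 or 17 reached log2 5 on every array. Of 17 tested stellate markers, 4 were called higher and 3 lower after BDL, and 3 higher and 6 lower after CCl4, the counts also without CCl4 replicate 3. The median difference of the 18 was -0.44 after BDL and -0.67 after CCl4, or -0.65 without CCl4 replicate 3. Called lower after BDL were Reln (-1.13), Hgf (-1.57) and Rgs5 (-1.28). After CCl4 these were Pdgfrb (-1.015), Reln (-1.40), Dcn (-0.695), Cygb (-2.67), Rgs5 (-1.53) and Lhx2 (-1.35). By limma, Col1a1 was higher by 4.26 after BDL (adjusted p = 2.55e-06) and by 2.90 after CCl4 (adjusted p = 8.36e-05), or 2.95 without CCl4 replicate 3 (adjusted p = 0.000772).

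**Figure D4:**
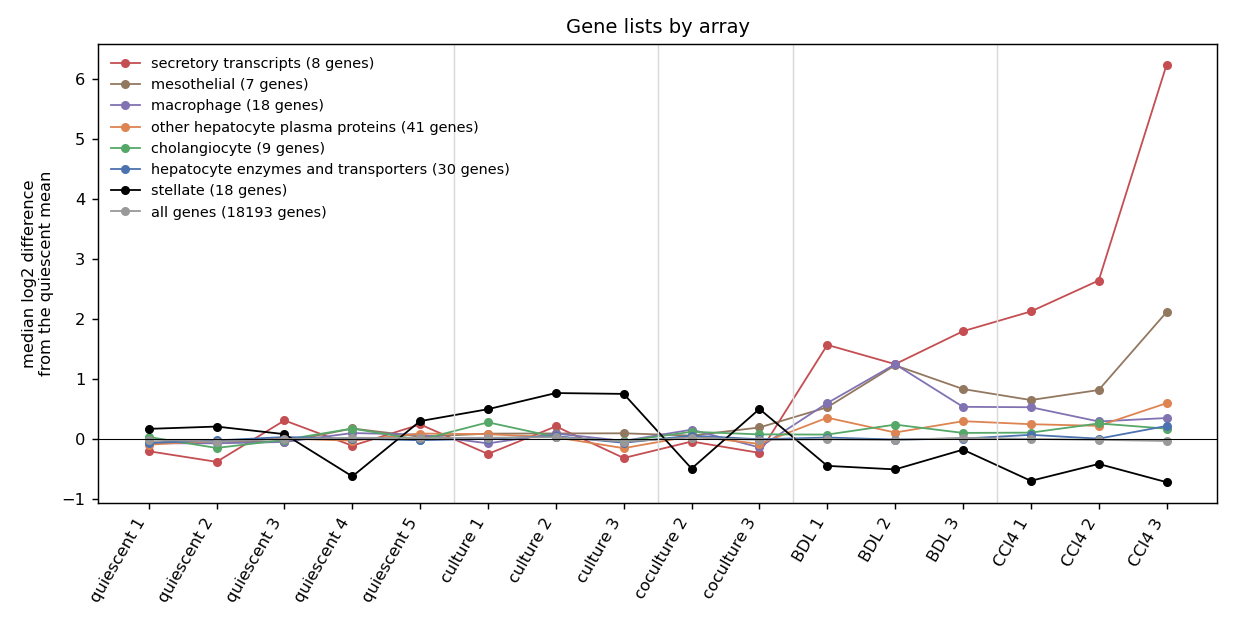
Median log2 difference from the quiescent mean (vertical axis), array by array (horizontal axis, grouped by condition). Lines are the 8 genes, other hepatocyte plasma proteins, hepatocyte enzymes and transporters, mesothelial, macrophage, cholangiocyte and stellate markers, and all genes. The 8 genes and the mesothelial, macrophage, other plasma protein and cholangiocyte lists lie above 0 on all arrays of injured livers. The cholangiocyte markers reach no more than 0.26 there. The hepatocyte enzymes and transporters stay near 0, with 0.22 on CCl4 replicate 3, and the stellate markers lie below 0 on those injury arrays.

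Genes with a pattern like that of each tested member were searched among the tested genes outside the members. Likeness was the root mean square difference, over the 16 arrays, of values centred on each gene's mean. Only 2 of the 41 other plasma protein genes and 2 of the 30 enzymes and transporters were tested, so the rest could not appear. For Alb the closest tested genes were Krt18 (0.78 log2 units), Krt8 (0.94) and Hspb7 (1.04). Krt18 and Krt8 encode the keratin pair of simple epithelia, which hepatocytes and mesothelial cells both make. Krt18 read 7.82, 7.03 and 6.96 after BDL and 7.87, 7.80 and 9.96 after CCl4, and 1.79 to 2.58 on all other arrays. For Hpx they were Lmod1 (0.78), Slc4a4 (0.84) and Loxl1 (0.90), for Ttr Itga6 (0.95), Bnc1 (0.98) and Ltbp2 (0.98), and for Afp Bnc1 (0.81), S100a4 (1.06) and Prkg2 (1.10). Bnc1, which encodes the zinc finger protein basonuclin 1, read 1.00 to 2.28 outside CCl4 and 4.46, 5.22 and 7.04 after it. Among the tested plasma protein genes themselves, Ttr and Hpx were closest (1.00) and Alb and Afp, the chromosomal neighbours, were farthest apart (2.25).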

How the data were processed

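RNA of stellate cell preparations was measured on 16 Affymetrix mouse oligonucleotide arrays. The deposited values are log2 expression per probe set. The submitters' processing notes name GCRMA; which version and settings is not given in the sources used here. GCRMA models background from probe sequence, so unexpressed probe sets lie near log2 2 and folds from such levels depend on that model. The number of arrays limits the precision.

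Of 45101 probe sets, 34958 had 1 gene symbol in the platform annotation, 932 had several and the rest none. For each of 18193 genes the probe set of highest mean was kept. Genes at log2 5 or more on 2 or more arrays (7823) were fitted with limma 3.58.1 in R 4.3.3 (5 group means, eBayes with trend, two-sided, 7 contrasts), and called at a Benjamini-Hochberg adjusted p under 0.05. The script was tested on simulated data.

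Named genes were all 9 members, for each gene list up to 4 tested genes with the highest mean and up to 4 called with the smallest adjusted p, and the 3 tested genes most like each tested member, with unnamed clones skipped. Defining markers and genes said to be named after their values were seen are exceptions. The members and lists were chosen with earlier results of these data known. Alternatives covered the filter, probe set choice, centring, array weights, trend, samples fitted, a replicate block and each array left out.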

Additional observations from a re-analysis of the deposited data

Results flagged for a closer look

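The difference between the injuries for Afp was singled out because the effects of BDL and CCl4 against the same quiescent cells differed by a test of the difference itself, the contrast of BDL minus CCl4 (-4.49 ± 0.69, limma adjusted p = 0.00982). Both injury effects use the same quiescent arrays. The call did not hold without BDL replicate 3 or without CCl4 replicate 3. Not all Afp probe sets rose after CCl4, and Afp was untested when its probe sets were averaged.

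A signal outside the comparisons came from the probe set that the annotation assigns to both Trf and Srprb. Its mean was 5.91 ± 0.17 (SD, n = 5) in quiescent cells and 5.83 in culture, against 7.07 in coculture, 8.41 after BDL and 8.25 after CCl4. The quiescent arrays lay between 5.65 and 6.11, and the lowest values were 6.79 in coculture, 8.08 after BDL and 7.37 after CCl4. The signal cannot be assigned to either gene. No single array of the quiescent group, the 1 group large enough to check, stood apart for any of the 8 genes.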

How the results depend on the processing

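No result changed direction where it was called. Centring the arrays and fitting without the trend left all 35 results (the counts of called genes and each tested gene in each of the 7 contrasts) on the same side of the threshold, and so did the replicate block, although same-numbered arrays did not pair: of 26 same-number pairs 7 correlated over 0.1, from -0.259 to 0.537. With the block, Afp differed between the injuries by -4.49 (adjusted p = 0.0479), and over all genes 1084 were called after BDL and 1325 after CCl4.

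Counts of called members depended on the filter, since fewer or more of them were then tested. With the filter at log2 7, 1 was tested, and 1 was called after BDL, 1 after CCl4, 0 between the injuries and 1 in 5-day cultures against 24 h preparations. Of the 5420 genes tested at that level, 936, 1231, 4 and 2969 were called in these contrasts. Without a filter 7 of 8 were called after CCl4 and 5 in the 5-day contrast, and with CCl4 replicate 3 left out as well 6 were called after BDL and 7 in the 5-day contrast. Of all 18193 genes, 1798 and 4939 were called in the former fit and 1388 and 4490 in the latter. With the mean of all probe sets 0 were called between the injuries, Afp being untested. With array weights 1, Afp, was called in culture, where the array with its high value, culture replicate 2, had a weight of 5.79. The cause was not tested. Leaving out each array in turn gave 2 to 3 called after BDL, 4 after CCl4, 0 to 1 between the injuries and 3 to 4 in the 5-day contrast, and 0 in the other 3 contrasts. Afp was called lower in 5-day cultures without CCl4 replicate 1 (-1.22, adjusted p = 0.0427) or culture replicate 2 (-1.52, adjusted p = 0.0056).

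Over all genes, the 13 called between the injuries became 43 without a filter, 4 with the filter at log2 7, 20 with the mean of all probe sets, 173 with array weights and 32 with only the groups compared, which also took coculture against culture from 1205 to 598. Leaving out 1 array moved the 13 to between 3 (without CCl4 replicate 3) and 20 (without quiescent replicate 4), with 5 without BDL replicate 3 or CCl4 replicate 1 and 8 without culture replicate 2. It took BDL against quiescent from 1319 to 769 without BDL replicate 1, CCl4 against quiescent from 1719 to 869 without CCl4 replicate 1, coculture against quiescent from 3031 to 1965 or 1816 without coculture replicate 2 or 3, and coculture against culture to 412 without coculture replicate 2, where the remaining sample takes its spread from the other groups. Fitting only the groups compared could not be done for the 5-day contrast, which uses all groups. Signals near log2 2 limit what can be said of Ahsg and Apoa2.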

Other observations

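Cp and Krt19 were highest in coculture, where no tested plasma protein gene among the members was called. Cp, which encodes the copper-carrying ferroxidase ceruloplasmin, had a mean of 7.48 in quiescent cells, 8.08 after BDL and 7.85 after CCl4, and read 10.45 and 10.96 in coculture. Krt19, a keratin of bile duct cells, had a mean of 1.58 in quiescent cells and read 5.56 and 5.64 in coculture. Both were tested genes of the lists and were called higher in coculture against quiescent cells by limma, by 3.22 and 4.02 log2 units. Fah, an enzyme of tyrosine breakdown, was higher in culture by 2.17 and in coculture by 2.15.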
